A study of Homo sapiens with 6 samples.

Results

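The enzymes described here are 9 proteins of the mevalonate pathway, taken by name in pathway order from acetyl-CoA to squalene: ACAT2, HMGCS1, MVK, PMVK, MVD, IDI1, FDPS, GGPS1 and FDFT1. They are 9 of the 37902 genes in the table, and the rule that picks them is a list of names with no threshold on a measured value. The list was, however, chosen with earlier results of these data known, which limits every comparison with the share over all genes. RNA was sequenced from ARPE-19 cells, a human line of retinal pigment epithelial (RPE) cells, as 3 libraries of the parental wild type (WT) and 3 of a line with POLDIP2 knocked out (POLDIP2 KO). All 6 cultures were under regular maintenance, with no added agent named, and were labelled day 3. The POLDIP2 KO line was made with a lentivirus carrying Cas9 and a guide RNA, followed by puromycin, and was expanded as a selected population. The WT cells are not described as transduced or selected, so the knockout, the transduction and the selection cannot be told apart in this design. The replicates are called biological, and with 1 KO line they measure the spread between cultures of that line. In bulk RNA, fewer cells expressing a gene and less of its RNA in each cell cannot be told apart.

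The mevalonate pathway builds isoprenoid units from acetyl-CoA. Its products branch into sterols such as cholesterol, into the prenyl groups that anchor small GTPases to membranes, and into dolichol and ubiquinone. Many of its genes are switched on by the transcription factor SREBP-2, which is released from the endoplasmic reticulum when membrane sterol is low and held there by INSIG proteins when it is high. RPE cells both make cholesterol and take it up, partly from the photoreceptor outer segments that they engulf.

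The libraries held 39657489, 36517259 and 35515478 reads assigned to genes in WT replicates 1, 2 and 3. POLDIP2 KO replicates 1, 2 and 3 held 31532797, 45795509 and 38293289. Values are given as normalised counts, reads divided by the size factor of the library. POLDIP2 itself measured 3919, 4827 and 4798 normalised counts in the WT libraries and 1063, 1248 and 1143 in the POLDIP2 KO libraries. It was therefore at 25.5% of the WT mean and below every WT library in all 3 POLDIP2 KO libraries, as the labels have it (limma log2 fold change -1.97, adjusted p = 0.00961). Of 15 RPE markers, 11 passed the filter on low values, among them the keratins KRT8 and KRT18 and the transcription factors MITF and OTX2. Of these 11, SERPINF1, a secreted RPE factor, was the only marker with no overlap between the lines (log2 fold change -0.77, limma adjusted p = 0.822), where 5.44% of all genes tested lay below WT and 5.46% above it in this way. The mature RPE genes RPE65, TTR and RGR were at 0 in all 6 libraries. The photoreceptor gene ARR3 and the microglial gene AIF1 were also at 0 in all 6 libraries, and the endothelial cadherin CDH5 did not exceed 0.945. Other markers of the same cell types passed the filter, namely CRX, PDE6A, VWF, KDR and CD68. Over the 6 libraries PDE6A averaged 89.9 normalised counts, KDR 64.7 and CD68 1967.

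In POLDIP2 KO cells, 7 of the 9 mevalonate pathway enzymes were expressed below WT with no overlap between the libraries of the 2 lines. These were ACAT2, HMGCS1, MVK, MVD, IDI1, FDPS and FDFT1, at 36.9% to 60.4% of their WT means. Across all 14684 genes tested, 5.44% had every POLDIP2 KO library below every WT library, and 5.46% every one above. PMVK, at 97.6% of WT, and GGPS1, at 103% of WT, had overlapping libraries. All 9 enzymes passed the filter, which kept genes averaging 10 normalised counts or more, and the lowest read count of any enzyme in any library was 524. Their median log2 fold change was -0.91, and the median over all genes tested was -0.00029.

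The summed normalised count of the 9 enzymes was 34961, 37352 and 29617 in the WT libraries and 22117, 15087 and 17353 in the POLDIP2 KO libraries. The means were 33977 ± 3961 and 18185 ± 3588 (SD, n = 3 each), so the sum in POLDIP2 KO cells was 53.5% of that in WT cells. The lowest WT sum exceeded the highest POLDIP2 KO sum.

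A gene was called when its limma p-value, adjusted over all genes tested by the Benjamini-Hochberg method, was under 0.05 and its fold change over 1.5. None of the 9 enzymes was called, where 0.0885% of all genes were called lower and 0.0817% higher. At an unadjusted limma p under 0.05, 7 of the 9 enzymes were lower, against 3.47% of all genes. edgeR on the recovered reads called none, with 0.0547% of genes called lower and 0.0616% higher. DESeq2 on the same reads called 6 of the 9 enzymes lower, namely ACAT2, HMGCS1, MVK, MVD, IDI1 and FDPS, against 0.944% of genes called lower and 0.732% higher. The calls therefore depended on the test, while the direction of the 7 enzymes did not. With 3 libraries against 3, an exact two-sided permutation test of a single gene cannot give a p below 0.1. Each of the 7 enzymes reached that value, as does any gene with no overlap between the lines. It therefore restates the lack of overlap, which 5.44% of all genes showed below WT and 5.46% above.

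**Figure D1:**
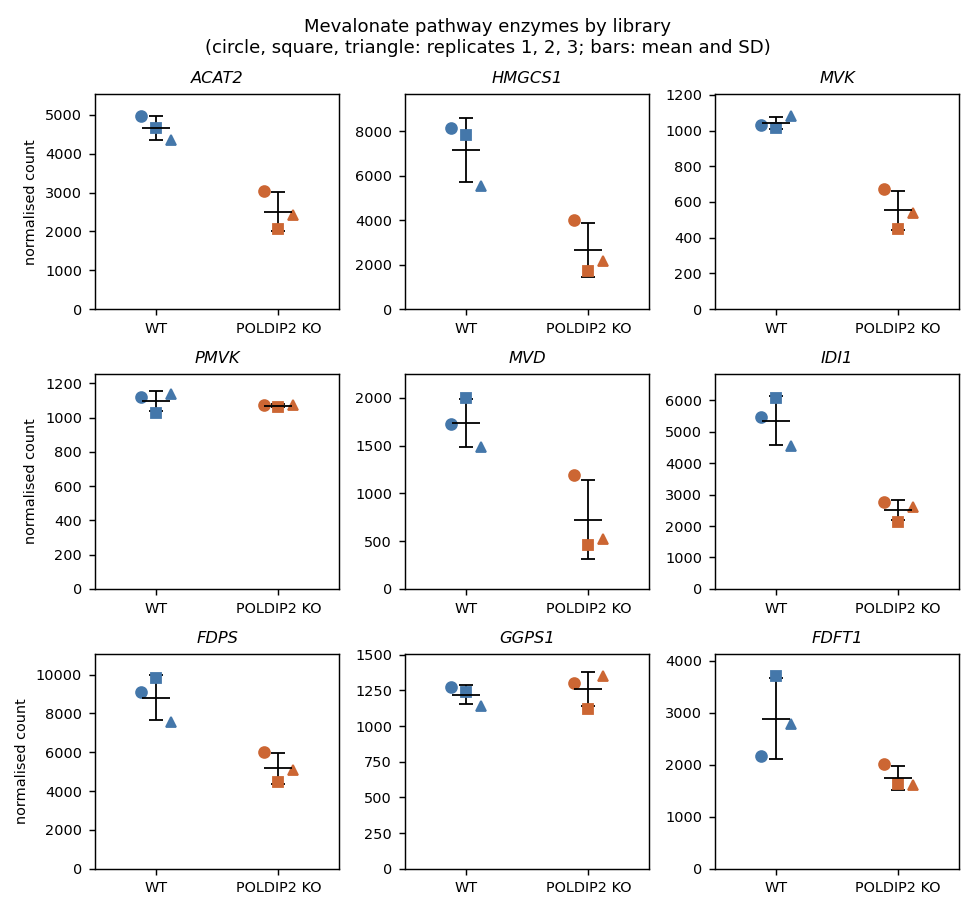
Normalised counts of the 9 mevalonate pathway enzymes in each library (y axis from 0, 1 panel per enzyme), with WT in blue and POLDIP2 KO in orange. Circles, squares and triangles are replicates 1, 2 and 3, and the bars give the mean and SD of 3 libraries. The POLDIP2 KO points lie below all WT points in every panel but those of PMVK and GGPS1.

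The sequences before the start sites are shown because 7 of the enzymes moved together and 2 did not. In the 250 bases upstream of each RefSeq start site (GRCh38.p14), the letters CCAAT, the core bound by the factor NF-Y, were searched on both strands. They occurred in 32.0% of 35116 promoters, and at least 2 copies in 9.53%. RefSeq entries were at hand for 7 of the 9 enzymes, all but ACAT2 and FDFT1. MVK had 5 copies, MVD and FDPS 3 each, HMGCS1 2 at 1 of its 2 start sites, and the 3 start sites of IDI1 had 3, 2 and 0. PMVK had none, and GGPS1 had 1 copy at 1 of its 3 start sites. The letters TCACNCCAC, a form of the sterol response element bound by SREBP and present in 0.883% of promoters, were not found in these windows of the enzymes on either strand. The same search found 1 copy upstream of SREBF2, which encodes SREBP-2, and 0 upstream of INSIG1. Both of these genes had 1 copy of CCAAT. Of the 12 sterol enzymes after squalene, 10 had an entry. CYP51A1 and LBR had no copy, with log2 fold changes of -0.98 and -0.28. HSD17B7, LSS, SC5D and TM7SF2 had 1 copy at most in a window, with -0.79, -0.66, -0.63 and -0.51. DHCR7 had 2 at most, EBP 3, MSMO1 4 and NSDHL 5, with -0.92, -0.44, -1.04 and -0.68. A match of letters is a description only, and no match says nothing about a factor.

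For 6 of the enzymes, 1 stretch of such a window that lies outside annotated exons follows, 5′ to 3′ on the strand of the gene, with CCAAT or its reverse complement ATTGG in capitals. The first 5 belong to enzymes that were lower in every POLDIP2 KO library, and PMVK, whose lines overlapped, has no copy. GGPS1, the other enzyme whose lines overlapped, has 1 copy in the stretch of 1 of its 3 start sites and is not printed, nor are the stretches of the other start sites of HMGCS1 and IDI1.
HMGCS1, chr5:43313513-43313662, minus strand: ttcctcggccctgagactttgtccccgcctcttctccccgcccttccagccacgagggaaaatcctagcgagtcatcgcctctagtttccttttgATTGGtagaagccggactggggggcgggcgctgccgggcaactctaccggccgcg
MVK, chr12:109573581-109573792, plus strand: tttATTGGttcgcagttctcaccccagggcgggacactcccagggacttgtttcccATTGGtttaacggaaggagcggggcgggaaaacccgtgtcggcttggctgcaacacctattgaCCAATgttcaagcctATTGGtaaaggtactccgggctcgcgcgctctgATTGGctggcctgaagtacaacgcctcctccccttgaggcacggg
MVD, chr16:88663162-88663297, minus strand: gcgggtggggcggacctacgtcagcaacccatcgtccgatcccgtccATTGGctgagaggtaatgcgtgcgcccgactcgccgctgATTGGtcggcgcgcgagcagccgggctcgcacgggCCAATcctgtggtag
IDI1, chr10:1049120-1049369, minus strand: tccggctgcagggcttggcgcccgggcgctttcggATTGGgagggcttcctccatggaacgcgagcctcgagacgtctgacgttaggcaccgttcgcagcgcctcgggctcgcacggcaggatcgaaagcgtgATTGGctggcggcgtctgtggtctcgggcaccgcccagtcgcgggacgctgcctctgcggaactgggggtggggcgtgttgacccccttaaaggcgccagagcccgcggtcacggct
FDPS, chr1:155308616-155308747, plus strand: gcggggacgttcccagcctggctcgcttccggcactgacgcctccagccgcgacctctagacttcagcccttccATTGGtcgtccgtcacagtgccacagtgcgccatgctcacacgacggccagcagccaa
PMVK, chr1:154936720-154936969, minus strand: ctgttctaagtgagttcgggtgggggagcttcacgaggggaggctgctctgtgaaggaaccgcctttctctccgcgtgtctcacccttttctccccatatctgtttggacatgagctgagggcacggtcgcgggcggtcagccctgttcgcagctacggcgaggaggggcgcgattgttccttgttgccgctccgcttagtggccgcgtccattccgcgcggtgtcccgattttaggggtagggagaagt
The MVK stretch holds all 5 of its copies, MVD all 3, IDI1 the 2 of this start site, HMGCS1 1 of 2 and FDPS 1 of 3.

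The first enzymes of the pathway join acetyl-CoA units. ACAT2 (ENSG00000120437, chromosome 6, 159762045 to 159779112, plus strand) is the cytosolic thiolase that makes acetoacetyl-CoA. It measured 4968, 4673 and 4355 normalised counts in the WT libraries and 3047, 2052 and 2419 in the POLDIP2 KO libraries, each given in the order of the replicate numbers 1 to 3. The WT libraries lay close together, and the highest POLDIP2 KO value, that of replicate 1, was still below the lowest WT value. The mean went from 4665 ± 307 to 2506 ± 503 (SD, n = 3 each), or 53.7% of WT, with a log2 fold change of -0.91 (95% interval -1.28 to -0.54). Its limma adjusted p was 0.122 and its DESeq2 adjusted p was 0.000182. The ends of ACAT2 overlap genes on the opposite strand, by 615 bases for TCP1 and 485 for SOD2. TCP1, a chaperonin subunit, had a log2 fold change of -0.02. The identifier of SOD2 in the annotation used, ENSG00000291237, matched no row of the table. Whether another row holds SOD2 under an older identifier was not determined here, and the part of its reads in ACAT2 was not tested. The library kit keeps strand, but whether the counting used it is not given in the sources used here.

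HMGCS1 (ENSG00000112972, chromosome 5, 43287470 to 43313512, minus strand), the cytosolic HMG-CoA synthase, had the lowest ratio of the 9 enzymes. It measured 8139, 7815 and 5518 normalised counts in the WT libraries and 4022, 1719 and 2182 in the POLDIP2 KO libraries. Replicate 3 was the lowest WT library and replicate 1 the highest POLDIP2 KO library, and these still did not overlap. The mean went from 7157 ± 1429 to 2641 ± 1218 (SD, n = 3 each), 36.9% of WT, and the log2 fold change was -1.51 (95% interval -2.26 to -0.76). The limma adjusted p was 0.21, with the second widest interval of the 9 enzymes, and the DESeq2 adjusted p was 0.000948.

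Mevalonate is then phosphorylated and decarboxylated by MVK, PMVK and MVD. MVK (ENSG00000110921, chromosome 12, 109573255 to 109598125, plus strand), mevalonate kinase, measured 1034, 1011 and 1082 normalised counts in WT and 670, 449 and 537 in POLDIP2 KO. The WT libraries were within 7% of one another, and all 3 POLDIP2 KO libraries were well below them. The mean was 1042 ± 36.0 in WT and 552 ± 111 in POLDIP2 KO (SD, n = 3 each), 53.0% of WT, with a log2 fold change of -0.93 (95% interval -1.33 to -0.54) and a limma adjusted p of 0.142. The DESeq2 adjusted p was 0.000422. MVK overlaps MMAB, an enzyme of cobalamin metabolism on the opposite strand, by 326 bases. MMAB had a mean of 1406 in WT and 987 in POLDIP2 KO, with a log2 fold change of -0.52 and a limma adjusted p of 0.393.

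PMVK (ENSG00000163344, chromosome 1, 154924740 to 154936719, minus strand), phosphomevalonate kinase, stood apart from its neighbours in the pathway. It measured 1118, 1028 and 1140 normalised counts in WT and 1073, 1060 and 1074 in POLDIP2 KO. The POLDIP2 KO values lay inside the range of the WT values. The log2 fold change was -0.03 with a 95% interval of -0.28 to 0.21, and the limma adjusted p was 0.9998. The interval of PMVK did not reach that of either MVK or MVD, the enzymes before and after it.

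MVD (ENSG00000167508, chromosome 16, 88651935 to 88663161, minus strand), the decarboxylase that forms isopentenyl diphosphate, had the widest ratio between libraries of the POLDIP2 KO line. It measured 1725, 1999 and 1490 normalised counts in WT and 1198, 459 and 520 in POLDIP2 KO. POLDIP2 KO replicate 1 stood well above replicates 2 and 3, but below the lowest WT library. The mean was 1738 ± 255 in WT and 726 ± 410 in POLDIP2 KO (SD, n = 3 each), 41.8% of WT, with a log2 fold change of -1.39 (95% interval -2.22 to -0.55) and a limma adjusted p of 0.323. MVD was called by DESeq2 with all libraries (adjusted p = 0.0276). Without POLDIP2 KO replicate 1 its limma log2 fold change was -1.82 with an adjusted p of 0.0454, which made it the only enzyme that limma called when a library was left out. Without any other library the DESeq2 call of MVD was lost, with adjusted p-values from 0.0861 (without WT replicate 3) to 0.329 (without POLDIP2 KO replicate 3).

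IDI1 (ENSG00000067064, chromosome 10, 1039152 to 1049119, minus strand) interconverts isopentenyl and dimethylallyl diphosphate, the building blocks of all isoprenoids. It measured 5450, 6070 and 4540 normalised counts in WT and 2766, 2141 and 2597 in POLDIP2 KO. The POLDIP2 KO libraries were close to one another and far below the lowest WT library. The mean was 5353 ± 770 in WT and 2501 ± 323 in POLDIP2 KO (SD, n = 3 each), 46.7% of WT. Its log2 fold change of -1.10 (95% interval -1.45 to -0.74) had the lowest limma p of the 9 enzymes, the 34th of 14684 genes, with an adjusted p of 0.0706. The DESeq2 adjusted p was 2.19e-07. IDI2, the paralogue of IDI1, was at or near 0, with 3.78 at most.

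The prenyl synthases FDPS and GGPS1 lengthen the chain, and they differed from each other. FDPS (ENSG00000160752, chromosome 1, 155308748 to 155320666, plus strand), which makes farnesyl diphosphate, measured 9093, 9807 and 7562 normalised counts in WT and 6035, 4461 and 5063 in POLDIP2 KO. All 3 POLDIP2 KO libraries were below the lowest WT library. The mean was 8820 ± 1147 in WT and 5187 ± 794 in POLDIP2 KO (SD, n = 3 each), 58.8% of WT, with a log2 fold change of -0.77 (95% interval -1.13 to -0.41), a limma adjusted p of 0.186 and a DESeq2 adjusted p of 0.00185. Without POLDIP2 KO replicate 3 the DESeq2 adjusted p was 0.0503. FDPS has 8 processed copies in the table that could share its reads, and the highest value of any of them in any library was 4.18.

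GGPS1 (ENSG00000152904, chromosome 1, 235327350 to 235344532, plus strand), which makes geranylgeranyl diphosphate from farnesyl diphosphate, measured 1273, 1238 and 1144 normalised counts in WT and 1303, 1123 and 1354 in POLDIP2 KO. The lines overlapped, with POLDIP2 KO replicate 2 lowest and replicate 3 highest of all 6. The log2 fold change was 0.05 (95% interval -0.24 to 0.33) with a limma adjusted p of 0.9998, and it was -0.01 without POLDIP2 KO replicate 3. The interval lay above that of FDPS. A longer annotated gene on the same strand, ENSG00000285053, covers 15963 bases of GGPS1. That identifier matched no row of the table, so no counts were listed under it, and a split of reads was not tested.

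FDFT1 (ENSG00000079459, chromosome 8, 11795573 to 11839395, plus strand), squalene synthase, takes farnesyl diphosphate into the sterol branch. It measured 2162, 3710 and 2786 normalised counts in WT and 2003, 1622 and 1607 in POLDIP2 KO. The lines did not overlap, but WT replicate 1 was only slightly above POLDIP2 KO replicate 1. The mean was 2886 ± 779 in WT and 1744 ± 225 in POLDIP2 KO (SD, n = 3 each), 60.4% of WT, with a log2 fold change of -0.70 (95% interval -1.19 to -0.21) and a limma adjusted p of 0.4545. FDFT1 missed the DESeq2 threshold with an adjusted p of 0.0754. It passed that threshold when DESeq2 took the replicate numbers as a block (adjusted p = 0.0405), without WT replicate 1 (0.00202) and without POLDIP2 KO replicate 1 (0.0472).

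Per kilobase of the canonical transcript, FDPS was the most abundant of the 9 enzymes in WT, at 6225 ± 810 normalised counts per kilobase (SD, n = 3). ACAT2 followed at 3069 ± 202, IDI1 at 1955 ± 281, FDFT1 at 1418 ± 383, HMGCS1 at 1338 ± 267, PMVK at 1093 ± 59.0, MVD at 966 ± 142, GGPS1 at 421 ± 23.0 and MVK at 368 ± 12.7. The libraries of neighbours in this order overlapped for IDI1 and FDFT1, FDFT1 and HMGCS1, HMGCS1 and PMVK, and PMVK and MVD. In POLDIP2 KO cells, FDPS at 3660 ± 561 and ACAT2 at 1649 ± 331 per kilobase remained the most abundant. PMVK, at 1067 ± 7.91 per kilobase, went from the 6th place to the 3rd place, above IDI1 at 913 ± 118, FDFT1 at 857 ± 110 and HMGCS1 at 494 ± 228. GGPS1, MVD and MVK came last, at 435 ± 41.9, 403 ± 228 and 195 ± 39.3 per kilobase. Neighbours overlapped there for IDI1 and FDFT1, HMGCS1 and GGPS1, and GGPS1 and MVD. The order within a line rests on the canonical transcript length, whereas the ratio between lines does not.

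**Figure D2:**
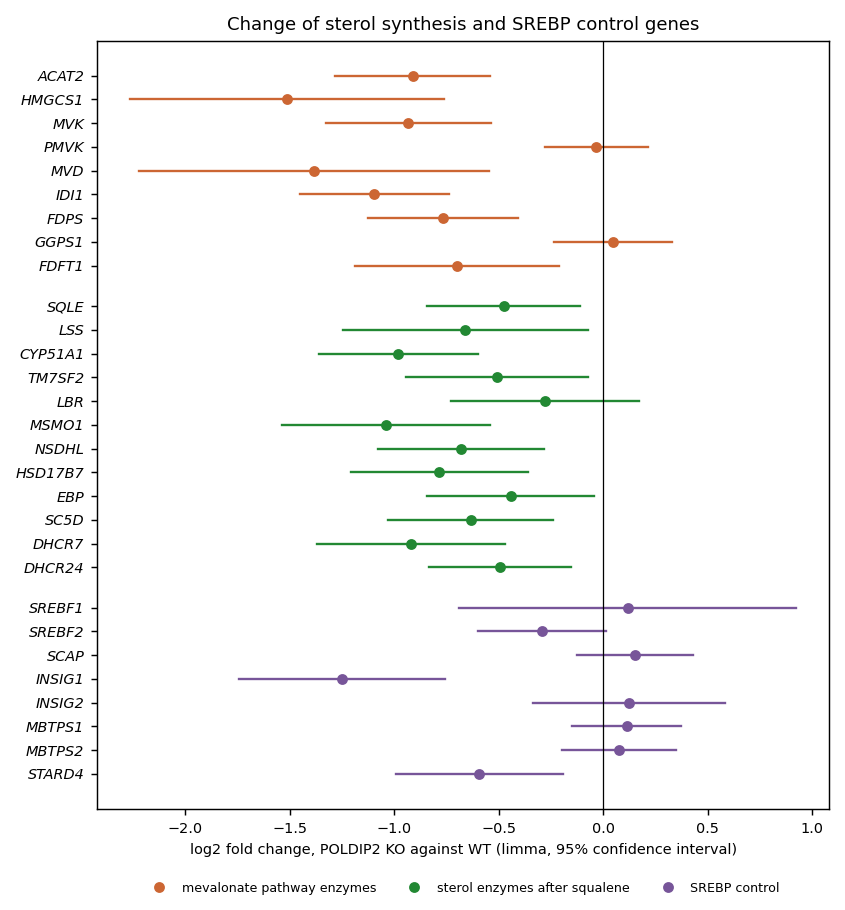
Log2 fold change of POLDIP2 KO against WT (x axis) for the mevalonate pathway enzymes, the sterol enzymes after squalene and the SREBP control genes, as limma estimates with 95% confidence intervals from 3 libraries per line. Of the pathway enzymes, only the intervals of PMVK (-0.28 to 0.21) and GGPS1 (-0.24 to 0.33) cross 0, and HMGCS1 (-1.51) lies farthest to the left.

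The labels number the replicates 1 to 3 in both lines. Across all genes tested, deviations from the line means correlated at 0.315 between the libraries of number 1. Numbers 2 and 3, at 0.137 and 0.129, stayed below the highest combination of unlike numbers, 0.147. The differences within a number are therefore given as values only. Within replicate 1, POLDIP2 KO minus WT on the log2 scale was -0.71 for ACAT2, -1.02 for HMGCS1, -0.62 for MVK, -0.53 for MVD, -0.59 for FDPS and -0.11 for FDFT1. Within replicate 2 the same differences were -1.19 for ACAT2, -2.18 for HMGCS1, -1.17 for MVK, -2.12 for MVD, -1.14 for FDPS and -1.19 for FDFT1. Within replicate 3 they were -0.85 for ACAT2, -1.34 for HMGCS1, -1.01 for MVK, -1.52 for MVD, -0.58 for FDPS and -0.79 for FDFT1. IDI1 was at 50.7%, 35.3% and 57.2% of WT within replicates 1, 2 and 3. These 7 enzymes were lower at all 3 numbers, where 15.7% of all genes tested were. Replicate 2 had the lowest difference for 8 of the 9 enzymes, PMVK being the exception. PMVK differed by -0.06, 0.04 and -0.09, and GGPS1 by 0.03, -0.14 and 0.24. When limma was given the replicate numbers as a block, none of the 9 enzymes was called, with 0.0885% of genes called lower, and the lowest adjusted p was that of ACAT2 at 0.0713.

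**Figure D3:**
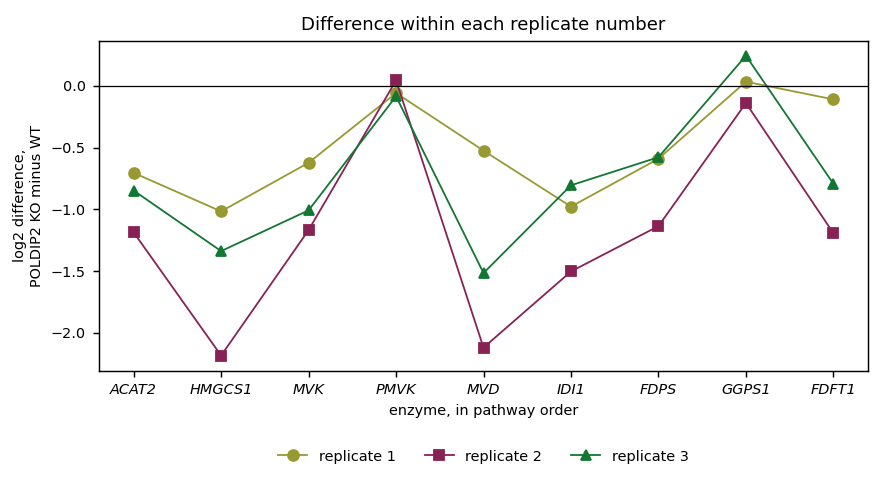
Log2 difference of POLDIP2 KO minus WT within each replicate number (y axis) for the 9 enzymes in pathway order (x axis), with 1 line per replicate number. All 3 lines return to near 0 at PMVK and GGPS1, and replicate 2 lies lowest for every enzyme but PMVK.

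Within the POLDIP2 KO line, most of the enzymes shared the order of the libraries. POLDIP2 KO replicate 1 was the highest of its line for 7 of the 9 enzymes, where 38.6% of all genes had their highest POLDIP2 KO value in it. Replicate 2 was the lowest for 8 of the 9 enzymes, where 32.8% of all genes had their lowest value in it. In WT the highest value was in replicate 1 for 3 enzymes, in replicate 2 for 4 and in replicate 3 for 2, and the lowest was in replicate 3 for 6. POLDIP2 KO replicate 1 was the shallowest library of the 6 and replicate 2 the deepest, and the part of depth in this order was not tested. The 8 proliferation genes stood in another order, with WT replicate 2 the lowest WT library for all 8 and POLDIP2 KO replicate 1 the lowest POLDIP2 KO library for 7. Their summed normalised count was 69209, 47781 and 72007 in the WT libraries and 51216, 63445 and 58929 in the POLDIP2 KO libraries. Within numbers 1, 2 and 3 their median log2 difference was -0.45, 0.37 and -0.27, so they were higher in POLDIP2 KO at the number where the enzymes differed most. The median log2 fold change of the 9 enzymes was -0.91 without WT replicate 2, -1.06 without POLDIP2 KO replicate 1 and -0.78 without POLDIP2 KO replicate 2, the smallest in size when 1 library was left out. Over the 6 libraries, the log2 values of the 7 enzymes with no overlap between lines, a set chosen after its values were seen, had pairwise Pearson correlations from 0.81 to 0.988 with a median of 0.954 over 21 pairs. The 15 pairs that include PMVK or GGPS1 lay between -0.187 and 0.403. These correlations share the difference between the lines and the size factors, and are given as a description.

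After squalene, the pathway runs through 12 measured sterol enzymes, and these followed the same direction. All 12 had lower means in log2 in POLDIP2 KO cells, 9 of them with no overlap (5.44% of all genes tested), and their median log2 fold change was -0.65. None was called by limma, although 11 were lower at an unadjusted p under 0.05 (3.47% of all genes). DESeq2 called 5 lower, CYP51A1, MSMO1, DHCR7, NSDHL and HSD17B7, against 0.944% of genes. MSMO1, the C-4 methyl sterol oxidase, measured 7356, 10021 and 6854 normalised counts in WT and 5057, 3292 and 3490 in POLDIP2 KO, with a log2 fold change of -1.04 and a limma adjusted p of 0.199. CYP51A1, the lanosterol demethylase, measured 6244, 8410 and 5788 in WT and 3581, 3049 and 3611 in POLDIP2 KO, with a log2 fold change of -0.98 and a limma adjusted p of 0.108. Both had every POLDIP2 KO library below WT. SQLE, the squalene epoxidase directly after FDFT1, had a log2 fold change of -0.48, smaller in size than that of the 7 enzymes before it. The weakest was LBR, -0.28, a reductase that also holds chromatin at the nuclear lamina. Summed, the 12 enzymes were at 65.1% of WT, and POLDIP2 KO replicate 1 was again the highest of its line for 9 of the 12.

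Before the pathway, acetyl-CoA reaches the cytosol through the citrate carrier SLC25A1 and the lyase ACLY, or is made from acetate by ACSS2. ACLY measured 14908, 15862 and 14471 normalised counts in WT and 12714, 10745 and 11493 in POLDIP2 KO. Every POLDIP2 KO library of ACLY lay below every WT library, as for 5.44% of all genes tested. Its log2 fold change was -0.37, with a limma adjusted p of 0.415. ACSS2 and SLC25A1 had log2 fold changes of -0.43 and -0.22 with overlapping libraries. Neither limma nor DESeq2 called any of the 3, where 0.0885% and 0.944% of all genes were called lower.

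Among 8 genes that control SREBP or answer to it, the values split. INSIG1, the sterol-regulated anchor of SREBP in the endoplasmic reticulum, measured 4003, 6432 and 4475 normalised counts in WT and 2230, 1670 and 2283 in POLDIP2 KO. This was 41.5% of WT with no overlap, a log2 fold change of -1.25, a limma adjusted p of 0.11 and a DESeq2 adjusted p of 1e-05, and INSIG1 was the only gene of the list that DESeq2 called, where 0.944% of all genes were called lower. STARD4, a sterol carrier, had a log2 fold change of -0.59 and SREBF2, which encodes SREBP-2, -0.29, both with no overlap, as for 5.44% of all genes, and neither called. The other 5 were SCAP at 0.15, SREBF1 at 0.12, INSIG2 at 0.12, MBTPS1 at 0.11 and MBTPS2 at 0.07, with overlapping libraries. The median of the list was 0.09.

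The users of the prenyl diphosphates lie downstream. Of 14 genes for prenyltransferases, CAAX processing and the synthesis of dolichol and the ubiquinone and menaquinone side chains, 8 were lower and 6 higher. None was without overlap (5.44% of all genes lay below WT and 5.46% above it), and none had an unadjusted limma p under 0.05, where 3.47% of all genes were lower at that p. Their median log2 fold change was -0.00, with a range from -0.16 for PGGT1B to 0.25 for FNTB. Of 7 genes of LXR, the oxysterol receptor, and its targets, 6 passed the filter, with 2 lower, 4 higher and a median of 0.03. ACAT1, the mitochondrial thiolase related to ACAT2, had a log2 fold change of -0.08 with overlapping libraries.

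Other features of the libraries were measured beside these results. Of 8 proliferation genes, 7 were lower and 1 higher in POLDIP2 KO, with a median log2 fold change of -0.10, and the libraries of the lines overlapped for all 8, where 5.44% of all genes lay wholly below WT and 5.46% above. The 13 mitochondrially encoded genes took 4.28%, 5.57% and 5.22% of the WT libraries and 4.70%, 6.35% and 5.48% of the POLDIP2 KO libraries, with a median log2 fold change of 0.32, and 4 of them were higher with no overlap, as were 5.46% of all genes tested. MT-CO1 was the most abundant of them in every library. The leukocyte gene PTPRC was at 0 in WT and at 1.23, 3.26 and 6.95 in POLDIP2 KO, a few reads at most. Of 13 markers of photoreceptors, endothelium and leukocytes, 5 passed the filter, CRX, PDE6A, VWF, KDR and CD68. All 5 had overlapping libraries, as had most genes tested, since 5.44% lay wholly below WT and 5.46% above. The part of any of these in the lower enzyme levels was not tested.

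Across the 6 libraries, the genes whose log2 values ran most nearly parallel to the mean of the 9 enzymes were found among the 11921 genes whose mean normalised count reached 100. The first 8 by Pearson correlation were ACLY (0.997), ENSG00000284967 (0.996), WSCD1 (0.996), NSDHL (0.988), IGFBP2 (0.985), MSMO1 (0.983), TMEM216 (0.981) and ZBTB34 (0.980). ACLY, NSDHL and MSMO1 also belong to the lists of acetyl-CoA supply and sterol synthesis above. ENSG00000284967, which has no symbol in the annotation used, measured 5954, 6161 and 5366 in WT and 3640, 2336 and 2911 in POLDIP2 KO. IGFBP2, an insulin-like growth factor binding protein, measured 221, 195 and 181 in WT and 122, 51.3 and 71.5 in POLDIP2 KO. Both were lower in every POLDIP2 KO library, and these correlations include the difference between the lines.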

How the data were processed

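RNA was extracted from 3 WT and 3 POLDIP2 KO cultures and libraries were prepared with a stranded mRNA kit. The processing notes of the submitters name Salmon 1.8, DESeq2 1.34.0 and GRCh38. The deposited values are normalised counts, a signal per gene that the authors made by dividing estimated counts by a size factor for each library, without a log transform. The mean ± SD and every level were computed on these values. Each column divided by its smallest value above 0 gave whole reads for 100% of values within 0.001. In WT replicate 2 and POLDIP2 KO replicate 3 that step is close to 1, so low values alone cannot show it. A total of 16563 genes were at 0 in every library.

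The main test was limma 3.58.1 (R 4.3.3; eBayes with trend) on log2 values after adding 1 to each normalised count. Genes averaging under 10 were left out, p-values were adjusted over 14684 genes by Benjamini-Hochberg, and no block was used, since the study's methods name none. A fold change on this scale understates the change of low genes. edgeR 4.0.16 (quasi-likelihood, TMM) called 17 genes and DESeq2 1.42.0 called 270 on the recovered reads, rounded to whole numbers. The replicate number served as the block and for the differences within a number. Deviations from the line means correlated at 0.315, 0.137 and 0.129 for numbers 1, 2 and 3, and from -0.259 to 0.147 for other combinations. Only number 1 thus stood above every combination of unlike numbers. Scripts were tested on simulated data.

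Symbols, positions and transcript lengths came from GENCODE release 44 and promoters from RefSeq (GRCh38.p14). The named genes are the 9 enzymes, the members of the lists described, POLDIP2, and the 8 genes most correlated with the mean of the enzymes. The members, lists and tests were chosen with earlier results of these data known. Depth, 31532797 to 45795509 reads, sets a floor of 3 reads, which covers counting error only. No columns of the table were left out.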

Additional observations from a re-analysis of the deposited data

How the results depend on the processing

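Of all genes tested, 25 were called by limma, 16 with a mean of at least 50, 30 with the replicate block, 5 with edgeR and the replicate block, 270 with DESeq2 and 395 with DESeq2 and the replicate block. Leaving out 1 library gave 0 to 10 limma calls, with 0 without WT replicate 2 or 3 or POLDIP2 KO replicate 2 or 3 (862, 903, 869 and 693 genes at an unadjusted p under 0.05) and 10 without WT or POLDIP2 KO replicate 1, and 208 to 327 DESeq2 calls (241, 256 and 276 without WT replicates 1, 2 and 3, and 327, 262 and 208 without POLDIP2 KO replicates 1, 2 and 3). Of the 9 enzymes, limma called 0 in every fit with all libraries, with or without the block, and edgeR called 0. DESeq2 called 6, and 7 with the replicate block. Leaving out 1 library gave 0 to 1 limma calls and 4 to 7 DESeq2 calls of the enzymes. The DESeq2 fits with the block or with a library left out were chosen after seeing the data. In every alternative run, 8 or 9 of the 9 enzymes were lower. GGPS1, with a log2 fold change of 0.05, ran from -0.0091 (without POLDIP2 KO replicate 3) to 0.13 (without POLDIP2 KO replicate 2) in limma, and it was -0.0067 without POLDIP2 KO replicate 3 in DESeq2, and no other enzyme changed direction. The cause of these differences was not tested, apart from the fewer libraries or genes in a fit. The replicate block changed the call of no enzyme in limma or edgeR, and that of FDFT1 in DESeq2. The adjusted p of IDI1 was 0.0585 to 0.143 over the limma fits with all libraries. With at least 524 reads per enzyme and library, no enzyme was near the floor of 3 reads.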
